A study of Arabidopsis thaliana with 12 samples.

Results

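The genes described here are the 5 phytochromes of Arabidopsis thaliana, PHYA (AT1G09570), PHYB (AT2G18790), PHYC (AT5G35840), PHYD (AT4G16250) and PHYE (AT4G18130), and the related import factors FHY1 (AT2G37678) and FHL (AT5G02200). They were chosen by name, through the locus of the transcript that each array probe was designed for, and make up 7 of the 25410 loci with a probe on the array. All 7 had a usable signal and entered the fit, which covered 20487 genes. They were read by 9 probes, since PHYE and FHL have 2 each.

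Gene expression was measured on 12 one-colour arrays, 3 in each of 4 groups of whole seedlings. The groups were wild type Col-0 on dimethyl sulfoxide (DMSO, the solvent), wild type on 15 µM 3-bromo-7-nitroindazole (3B7N), the double mutant cry1cry2 on DMSO, and cry1cry2 on 15 µM 3B7N. The mutant lacks the blue light receptors CRY1 and CRY2, and its alleles are not named in the labels. Seeds of all groups were sown on medium that already held the chemical or the solvent, kept for 3 days in the dark at 4 °C, and then grown for 4 days under blue light left on without a break (5 µmol m-2 s-1). The series text speaks of 3 chemicals, of which 3B7N is the one analysed here, and it sets each chemical against DMSO in a study of hypocotyl elongation. Nothing in the labels says whether replicates were separate cultures, so the p-values measure only the spread between these samples, which may be technical. RNA came from entire seedlings, and fewer cells of a type and less RNA per cell cannot be told apart in such samples.

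Phytochromes are red and far-red light receptors that carry a bilin chromophore and switch between an inactive and an active form. PHYA encodes the light-labile receptor, which builds up in darkness, is broken down in light, and also takes part in responses to blue light; its gene is known to be transcribed less in light. PHYB to PHYE encode light-stable receptors, with PHYB the main one for red light, PHYD its closest relative, and PHYC and PHYE known to form dimers with it. FHY1 and its homologue FHL bind light-activated phytochrome A and bring it into the nucleus, and both genes are known to be activated by the transposase-derived factors FHY3 and FAR1.

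The 75th percentile of the processed signal ranged from 883 to 2333 over the 6 wild-type arrays and from 2567 to 6794 over the 6 mutant arrays. Array brightness thus went with genotype, and its part in the differences between genotypes was not tested. Between 64.4% and 81.2% of probes were well above background, and no spot was saturated. Arrays of a group correlated at 0.979 to 0.993. The arrays lay on 3 slides of 4. Slide 1 held the 3 wild-type DMSO arrays and wild-type 3B7N array 1, slide 2 held wild-type 3B7N arrays 2 and 3 with mutant DMSO arrays 1 and 2, and slide 3 held mutant DMSO array 3 with the 3 mutant 3B7N arrays. Untreated wild type shared no slide with the mutant, and treated wild type shared none with treated mutant. The differences of cry1cry2 from wild type on DMSO and on 3B7N thus lie wholly between slides. For the other contrasts of 2 groups, within-slide differences are given beside the results. With the slide as a fixed block those contrasts take the value of the within-slide difference, so the 2 are not separate checks. Within-slide differences rest on 1 array against 3 on slides 1 and 3, and on 2 against 2 on slide 2. The genotype labels were checked on the mutated genes. CRY1 was at 3.25 or above on all 6 wild-type arrays and at -7.73 or below on all 6 mutant arrays (log2 signal relative to the array's 75th percentile, the scale of all levels below), and CRY2 was at 1.85 or above and at -8.59 or below. Markers of green tissue, roots, seeds, epidermis and vasculature were measured on every array. The summed level of 6 green tissue markers was 8.87 to 9.21 in untreated and 8.76 to 9.64 in treated wild type, and 7.15 to 8.18 in untreated and 7.89 to 8.23 in treated cry1cry2. The summed level of 6 root markers was 6.10 to 6.27, 6.04 to 6.57, 5.14 to 5.90 and 5.48 to 5.68 in the same order of groups.

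**Figure D1:**
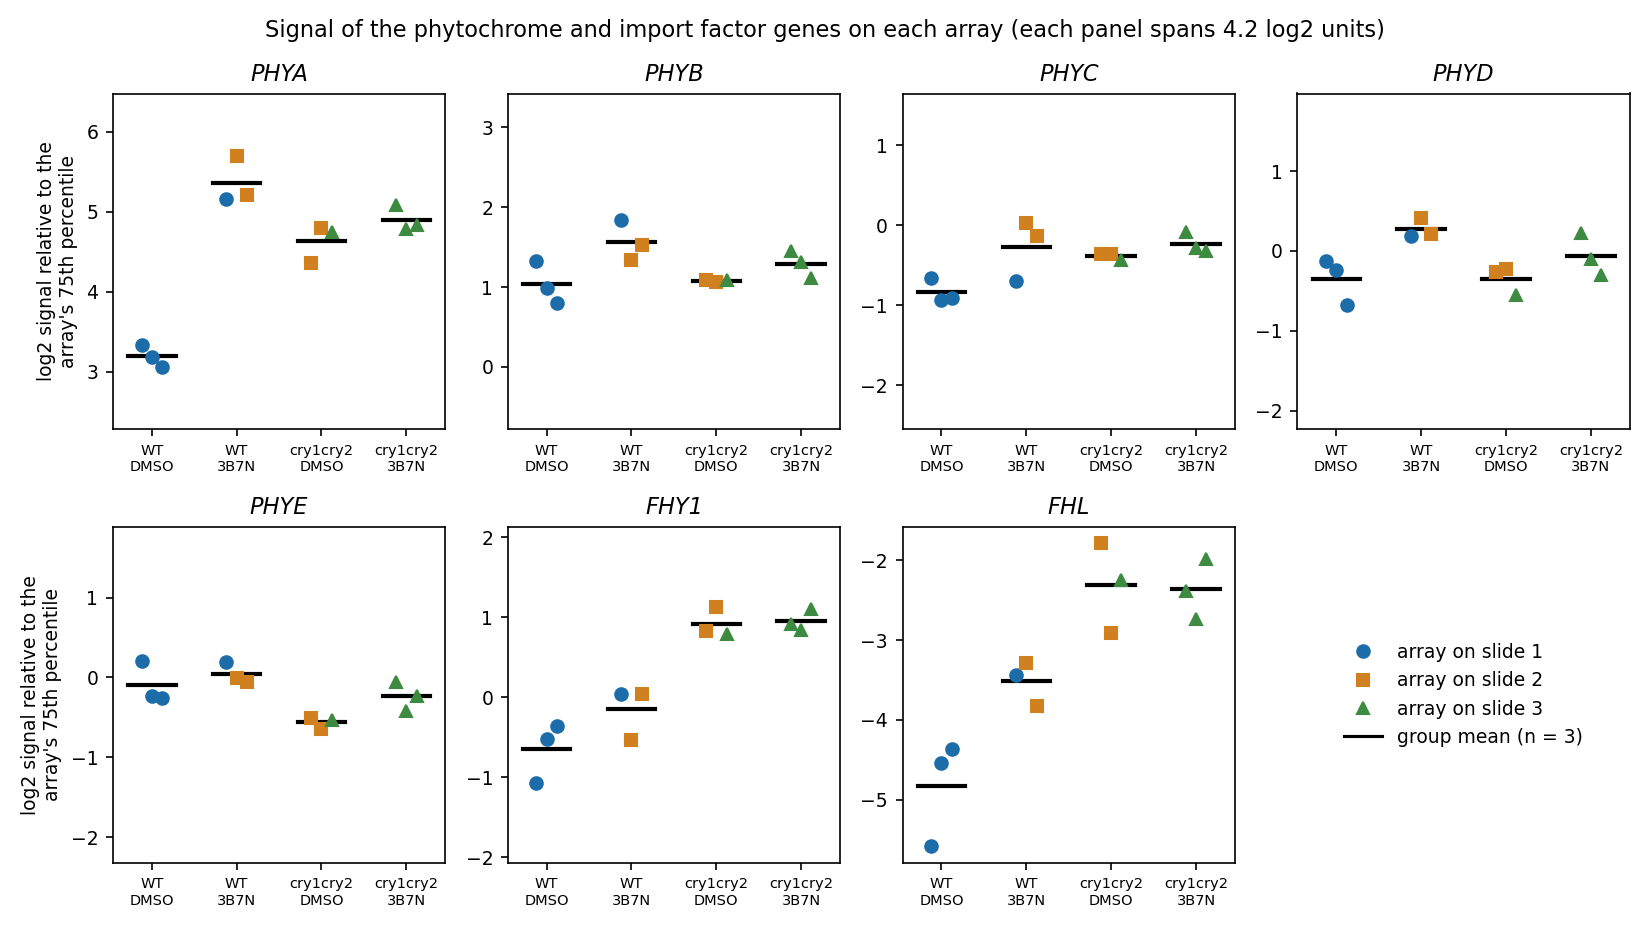
Level of each gene on each of the 12 arrays, as log2 processed signal relative to the array's 75th percentile, by group, with the slide shown by colour and shape and the mean of 3 arrays as a bar. PHYA lay at 3.06 to 3.34 on the wild-type DMSO arrays and at 4.36 or above on all other arrays, and FHY1 and FHL were higher on the 6 mutant arrays than on the 6 wild-type arrays.

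PHYA rose with 3B7N in wild type and was also high in untreated cry1cry2, where 3B7N did not raise it by an amount that passed the test. In wild type on DMSO its level was 3.34, 3.19 and 3.06 on arrays 1 to 3. On 3B7N it was 5.16, 5.70 and 5.21, so that every treated array lay above every untreated one. In cry1cry2 on DMSO it was 4.36, 4.80 and 4.75, and in cry1cry2 on 3B7N it was 5.08, 4.79 and 4.84. All 6 mutant arrays thus lay between the untreated and the treated wild-type arrays, and the mutant groups overlapped each other.

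The difference with 3B7N in wild type was 2.16 log2 units (SE 0.18, 95% confidence interval 1.77 to 2.56, 4.48-fold, adjusted p = 8.64e-06 by limma with Benjamini-Hochberg adjustment over all genes). This was the 337th highest of 20487 differences. In cry1cry2 the same contrast was 0.26 (SE 0.18, interval -0.13 to 0.66, adjusted p = 0.433 by limma). The difference between these changes, the interaction, was -1.90 (SE 0.25, interval -2.46 to -1.34, adjusted p = 0.000397 by limma), so the smaller change in the mutant passed a test of its own. On DMSO, PHYA was 1.44 log2 units higher in cry1cry2 than in wild type (SE 0.18, interval 1.05 to 1.84, 2.72-fold, adjusted p = 7.20e-05 by limma). The change with 3B7N in wild type was called under all 24 alternative settings, at 1.92 to 2.30 log2 units, as was the mutant's difference on DMSO, at 1.09 to 1.90. The interaction was called under the 23 alternatives that it allows, at -2.04 to -1.70. The lowest mutant value came from the fit with the slide as a block (1.09, adjusted p = 0.0479 by limma). Within slide 1, the single 3B7N array was 1.96 above the mean of the 3 DMSO arrays, and within slide 3 the mutant 3B7N arrays were 0.15 above the single DMSO array.

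The order of the groups for PHYA was wild type on DMSO, cry1cry2 on DMSO, cry1cry2 on 3B7N and wild type on 3B7N. Of its neighbours, only the lowest pair passed the test. Treated cry1cry2 was 0.46 below treated wild type (interval of the difference 0.063 to 0.85, adjusted p = 0.0806 by limma) without overlap of the arrays, a difference that became -0.59 and passed the test with median scaling (adjusted p = 0.0488 by limma) and turned to 0.20 with quantile scaling and to 0.14 with normexp background correction of the raw signal followed by quantile scaling (normexp below). Untreated cry1cry2 was 0.72 below treated wild type (SE 0.18, adjusted p = 0.0122 by limma), and -0.88 within slide 2. That value shrank to -0.018 with quantile scaling and to -0.068 with normexp, and was -0.58 without mutant DMSO array 1 (adjusted p = 0.0548 by limma). The position of treated wild type above the mutant thus depended on the scaling, while its position above untreated wild type did not.

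In the authors' deposited table, which lists 3453 probes past a 2-fold change in the wild-type contrast, the PHYA probe has a fold of 4.37 given without a sign and a corrected p of 0.000147. Both FHL probes are in the authors' deposited table for that contrast too, with folds of 2.42 and 2.21 without a sign. None of the 9 probes of these genes is among the 577 probes of the authors' deposited table for the mutant contrast.

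PHYB, PHYC and PHYD rose by smaller amounts with 3B7N in wild type, PHYE did not pass the test there, and none of these receptors passed it with 3B7N in cry1cry2. In untreated wild type PHYB was at 1.33, 0.98 and 0.80, and in treated wild type at 1.84, 1.33 and 1.52. Its lowest treated array was just above its highest untreated one. In cry1cry2 it was at 1.08, 1.06 and 1.08 on DMSO and at 1.45, 1.32 and 1.11 on 3B7N, which lies within the range of the wild-type groups. PHYD, the gene most like PHYB in sequence, stood at -0.13, -0.24 and -0.67 in wild type on DMSO and at 0.18, 0.41 and 0.22 on 3B7N. Its mutant levels were -0.27, -0.22 and -0.55 on DMSO and 0.22, -0.11 and -0.30 on 3B7N. For PHYD, too, the wild-type groups did not overlap, and the mutant groups did. In cry1cry2 the treated arrays lay above the untreated ones without overlap for PHYB, PHYC and PHYE, which are 3 of the 7 genes, where 17.2% of all genes showed the same. The differences there were 0.22 for PHYB, 0.15 for PHYC (interval -0.24 to 0.54, adjusted p = 0.683 by limma) and 0.33 for PHYE. For PHYE this was the brighter of its 2 probes. The dim second probe went the other way, at -0.33 (adjusted p = 0.488 by limma, over all probes). Its treated mutant arrays lay below the untreated ones without overlap. Within slide 3 the mean of the treated mutant arrays was above the single untreated one by 0.21 for PHYB, 0.20 for PHYC, 0.49 for PHYD and 0.30 for PHYE.

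With 3B7N in wild type PHYB was 0.53 log2 units higher (SE 0.17, 1.44-fold, adjusted p = 0.0291 by limma) and PHYD 0.62 higher (SE 0.18, 1.53-fold, adjusted p = 0.0189 by limma). In cry1cry2 their differences were 0.22 (adjusted p = 0.507 by limma) and 0.29 (adjusted p = 0.398 by limma). The interactions were -0.31 (interval -0.84 to 0.22) for PHYB and -0.33 (interval -0.89 to 0.23) for PHYD, so a smaller change in the mutant was not shown for either gene. Between the genotypes on DMSO, PHYB differed by 0.038 (interval -0.34 to 0.41) and PHYD by 0.000552 (interval -0.40 to 0.40). The PHYB call in wild type was lost without wild-type DMSO array 2 (0.50) or 3 (0.41) and without wild-type 3B7N array 1 (0.39) or 3 (0.55), with adjusted p-values by limma of 0.0506 to 0.113, as well as with quantile scaling (0.47, adjusted p = 0.0557 by limma) and in a fit of only the arrays compared (adjusted p = 0.0832 by limma). PHYD lost its call without wild-type DMSO array 3 (0.45) or wild-type 3B7N array 2 (0.55), and with the slide as a block (0.53, adjusted p = 0.160 by limma). Within slide 1 the treated array was 0.80 above the untreated mean for PHYB and 0.53 above it for PHYD, and above each untreated array for both genes.

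In untreated wild type PHYC was at -0.66, -0.93 and -0.91, and in treated wild type at -0.70, 0.032 and -0.13. Treated array 1, which shares slide 1 with the untreated arrays, lay among them, and the other treated arrays, on slide 2, lay above. In cry1cry2 the levels were -0.35, -0.36 and -0.43 on DMSO and -0.088, -0.28 and -0.32 on 3B7N, all of them above the untreated wild type. The wild-type difference was 0.57 (SE 0.18, 1.48-fold, adjusted p = 0.0252 by limma). With the slide as a block it fell to 0.14 (adjusted p = 0.617 by limma), which is the difference within slide 1, of 1 treated array from 3 untreated ones. The call was also lost without wild-type DMSO array 2 (0.52) or 3 (0.53) and without wild-type 3B7N array 2 (0.42) or 3 (0.50), and in a fit of only the arrays compared (adjusted p = 0.0817 by limma). On DMSO the mutant was 0.45 higher than wild type (interval 0.063 to 0.84), which missed the threshold (adjusted p = 0.0575 by limma), passed it without wild-type 3B7N array 1 (adjusted p = 0.0130 by limma) or 2 (adjusted p = 0.0402 by limma), which leaves the value itself as it is, passed it with normexp (0.43), array weights (0.51), a trended robust prior or only the arrays compared, and turned to -0.17 with the slide as a block. The interaction of -0.42 was not called, but was -0.63 and called without wild-type 3B7N array 1 (adjusted p = 0.0290 by limma). No neighbours in the order of the groups for PHYB, PHYC or PHYD passed the test, and the lowest pair of PHYC, untreated wild type and untreated cry1cry2, did not overlap. The order was wild type on DMSO, cry1cry2 on DMSO, cry1cry2 on 3B7N and wild type on 3B7N for PHYB and PHYD, and wild type on DMSO, cry1cry2 on DMSO, wild type on 3B7N and cry1cry2 on 3B7N for PHYC.

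PHYE was the one receptor that passed the test as lower in the untreated mutant. Wild type had levels of 0.21, -0.23 and -0.25 on DMSO, and of 0.19, -0.0027 and -0.051 on 3B7N. In cry1cry2 they were -0.51, -0.64 and -0.54 without and -0.058, -0.42 and -0.24 with 3B7N. The untreated mutant arrays were below all other arrays. On DMSO the mutant was lower by 0.47 log2 units (-0.47, SE 0.16, 0.722 of the wild-type level, adjusted p = 0.0285 by limma). The call was lost without wild-type DMSO array 1 (-0.32) or any of the mutant DMSO arrays 1 (-0.50), 2 (-0.43) and 3 (-0.48), with the slide as a block (-0.26, adjusted p = 0.558 by limma), with the mean of both PHYE probes (-0.37, adjusted p = 0.129 by limma), and in a fit of only the arrays compared (adjusted p = 0.0520 by limma). PHYE differed by 0.14 with 3B7N in wild type (interval -0.20 to 0.48, adjusted p = 0.495 by limma) and by 0.33 in the mutant (interval -0.014 to 0.66, adjusted p = 0.247 by limma). The second PHYE probe was dim, well above background on 10 of 12 arrays, with levels between -7.36 and -5.97. Its correlation with the first was r = 0.52 over the 12 arrays, and it did not pass the test in the mutant on DMSO (-0.28, adjusted p = 0.391 by limma, over all probes). With 3B7N in cry1cry2 the 2 probes had opposite signs, -0.33 for the second and 0.33 for the first, and neither passed the test. In the order cry1cry2 on DMSO, cry1cry2 on 3B7N, wild type on DMSO and wild type on 3B7N, no neighbours passed the test.

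**Figure D2:**
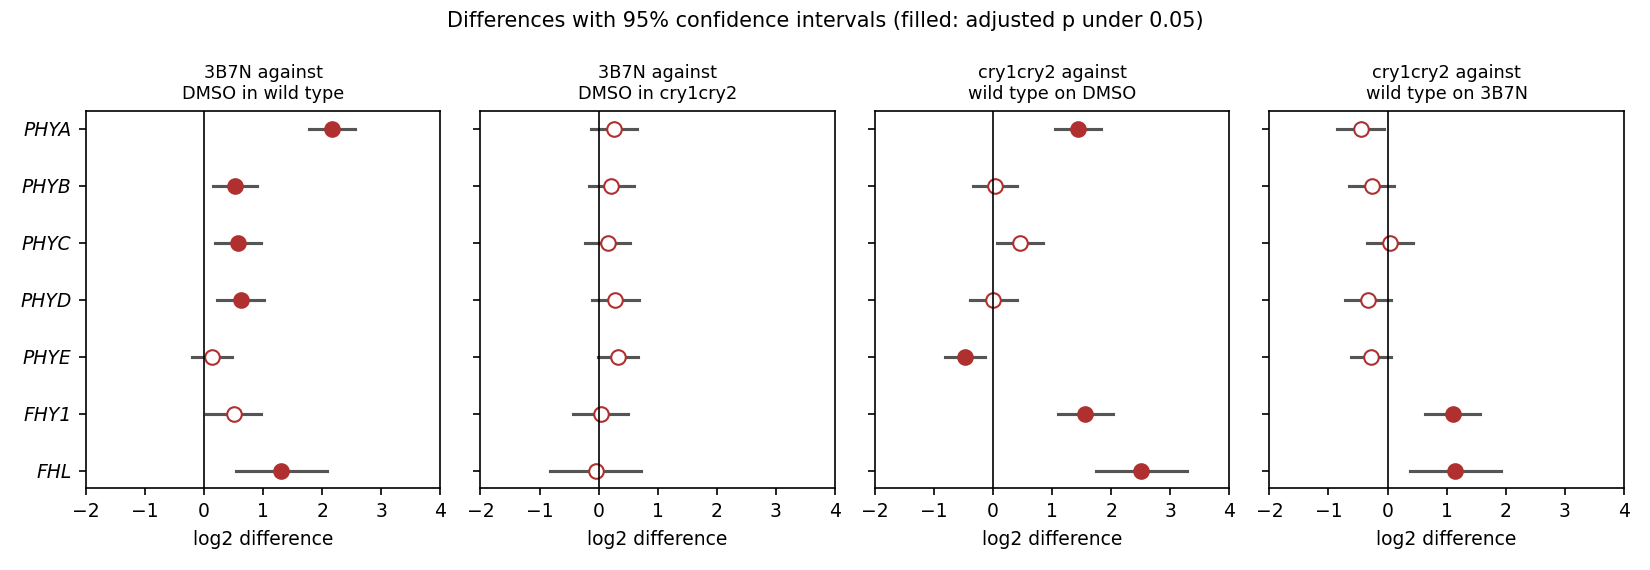
Log2 differences of the 7 genes in 4 contrasts, with 95% confidence intervals from the fit of 12 arrays. Filled points passed an adjusted p of 0.05: PHYA, PHYB, PHYC, PHYD and FHL with 3B7N in wild type, none with 3B7N in cry1cry2, PHYA, PHYE, FHY1 and FHL in cry1cry2 on DMSO, and FHY1 and FHL in cry1cry2 on 3B7N.

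The import factor genes were higher in cry1cry2 than in wild type on both media. In untreated wild type FHY1 was at -1.07, -0.53 and -0.35, and in treated wild type at 0.045, -0.53 and 0.041. In cry1cry2 it was at 0.83, 1.13 and 0.79 on DMSO and at 0.92, 0.84 and 1.11 on 3B7N. All 6 mutant arrays were above all 6 wild-type arrays, and treated array 2 of the wild type was among the untreated ones. FHL was at -5.58, -4.53 and -4.37 in wild type on DMSO and at -3.43, -3.29 and -3.82 on 3B7N. In the mutant it was at -1.79, -2.91 and -2.24 on DMSO and at -2.39, -2.73 and -1.98 on 3B7N. Here the wild-type groups did not overlap, the treated wild-type arrays lay between untreated wild type and the mutant, and the mutant groups were mixed.

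On DMSO FHY1 was 1.56 log2 units higher in the mutant (SE 0.21, interval 1.10 to 2.03, 2.96-fold, adjusted p = 0.000136 by limma). FHL was 2.51 higher (SE 0.35, interval 1.74 to 3.28, 5.70-fold, adjusted p = 0.000165 by limma), the 262nd highest of 20487 differences. Both calls were made under all 24 alternatives, at 1.35 to 1.92 for FHY1 and at 1.65 to 2.81 for FHL. FHL was dim in wild type, with a processed signal of 40.9, 72.8 and 113 on the DMSO arrays against 341 to 1964 in the untreated mutant, and the lowest of these values came from the normexp background correction. All 6 green tissue markers were called lower in the mutant on DMSO, with a median of -1.24, where the shares of all genes give 1.5. Of 6 root markers 4 were called lower, beside 1.5, with a median of -0.64 over the 6. The part of these markers in the mutant's differences was not tested.

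With 3B7N in wild type FHL rose by 1.31 log2 units (SE 0.35, interval 0.54 to 2.08, 2.48-fold, adjusted p = 0.0119 by limma). With the slide as a block the difference was 1.39 and missed the threshold (adjusted p = 0.0882 by limma). That value is the difference within slide 1, of 1 treated array from 3 untreated ones. With normexp the FHL difference was 0.82 and called. FHY1 differed by 0.50 (SE 0.21, interval 0.035 to 0.97, adjusted p = 0.0808 by limma), and by 0.69 without wild-type 3B7N array 2, when it passed the test (adjusted p = 0.0279 by limma), as it did with median scaling (0.64, adjusted p = 0.0393 by limma). In cry1cry2 neither gene passed the test with 3B7N. FHY1 differed there by 0.038 (interval -0.43 to 0.50) and FHL by -0.051 (interval -0.82 to 0.72). The FHL interaction was -1.36 (SE 0.50, interval -2.45 to -0.28) and just missed the threshold (adjusted p = 0.0581 by limma). It was called with median scaling (-1.50), quantile scaling (-1.52), normexp (-0.91), array weights (-1.40), or only probes above background on all arrays (-1.36), and without wild-type DMSO array 3 (-1.59), mutant DMSO array 2 (-1.66) or mutant 3B7N array 3 (-1.55). The FHY1 interaction was -0.46 (interval -1.12 to 0.20, adjusted p = 0.269 by limma).

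On 3B7N the mutant was also above wild type, by 1.10 for FHY1 (SE 0.21, 2.15-fold, adjusted p = 0.00542 by limma) and by 1.15 for FHL (SE 0.35, 2.22-fold, adjusted p = 0.0335 by limma). The FHL value was not called without wild-type 3B7N array 1 (1.19), 2 (1.26) or 3 (1.00) or mutant 3B7N array 1 (1.16) or 3 (0.96), and just missed the threshold with quantile scaling (1.01), the replicate number as a block (adjusted p = 0.0503 by limma) or the slide as a random block (1.14). With the slide as a block both values kept their sign and neither was called (FHY1 1.39, adjusted p = 0.356 by limma; FHL 1.08, adjusted p = 0.677 by limma). Untreated mutant set against treated wild type, groups that share slide 2, gave 1.06 for FHY1 (SE 0.21, adjusted p = 0.00399 by limma) and 1.20 for FHL (SE 0.35, adjusted p = 0.0246 by limma). Within slide 2 the untreated mutant arrays were 1.22 and 1.21 above the treated wild-type arrays for these genes, with no overlap. The FHL call in that contrast was lost without wild-type 3B7N array 3 (1.05), mutant DMSO array 1 (0.94) or mutant DMSO array 3 (1.16) and with the slide as a block (adjusted p = 0.108 by limma), while the FHY1 call was made with the slide as a block too (1.22, adjusted p = 0.0177 by limma).

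The order for FHY1 was untreated wild type, treated wild type, untreated cry1cry2 and treated cry1cry2, and only the middle pair passed the test. The lowest pair differed by 0.50 with an interval above 0, as given above, and its arrays overlapped. For FHL it was wild type on DMSO, wild type on 3B7N, cry1cry2 on 3B7N and cry1cry2 on DMSO, and the lower pair and the middle pair passed the test. The 2 FHL probes gave the same order of the 12 arrays (Spearman rho 1, Pearson r 0.994), and the second probe gave 1.18 for 3B7N in wild type (adjusted p = 0.0180 by limma, over all probes) and 2.50 for the mutant on DMSO (adjusted p = 0.000136 by limma, over all probes). Set against wild type on DMSO, the group means of PHYA were thus 4.48-fold in wild type with 3B7N, 2.72-fold in untreated and 3.26-fold in treated mutant. Those of FHL were 2.48-fold, 5.70-fold and 5.50-fold, and those of FHY1 were 1.41-fold, 2.96-fold and 3.04-fold. On this scale PHYA had its highest group mean in treated wild type, and the import factor genes had theirs in the mutant. For PHYA, the difference between treated wild type and treated mutant was not called, and its sign turned with quantile scaling and with normexp.

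**Figure D3:**
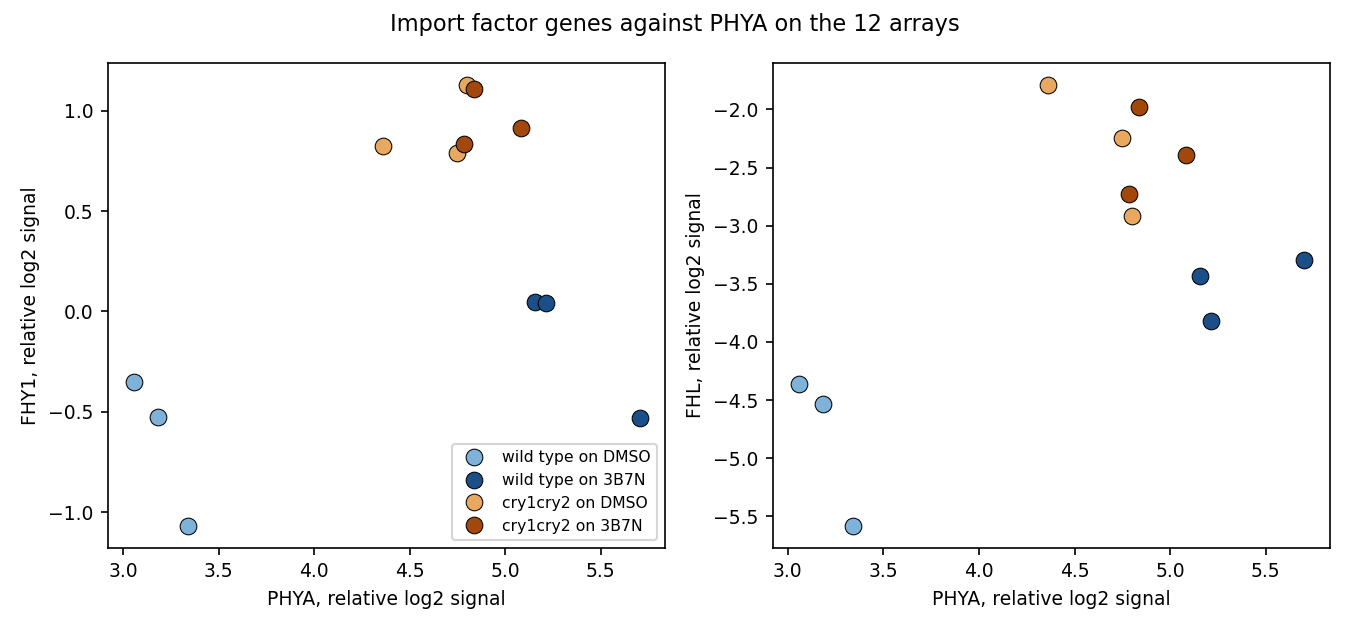
Level of FHY1 (left) and FHL (right) against that of PHYA on each of the 12 arrays, in log2 units relative to the array's 75th percentile, coloured by group. On this scale the 3 treated wild-type arrays have the highest PHYA levels, 5.16 to 5.70, with FHY1 at 0.045 or below. The mutant arrays have FHY1 at 0.79 or above. The place of treated wild type above the mutant for PHYA depended on the scaling.

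Over the 12 arrays FHY1 and FHL were correlated at r = 0.89, PHYA and PHYC at 0.84, and PHYB and PHYD at 0.80, while PHYE and FHY1 were at -0.67. These values rest on 4 groups and on shared arrays, and are given as a description. After each group's mean was taken out, the same pairs were at 0.26, 0.62, 0.45 and -0.45. The highest of all pairs was then PHYB with PHYE, at 0.75.

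Read against the whole array, 5 of the 7 genes were called higher with 3B7N in wild type and none lower, where 16.5% of the 20487 genes tested were called higher and 23.5% lower. Their median difference was 0.57, beside -0.055 over all genes. In cry1cry2, none of the 7 was called either way by limma, and none had an unadjusted p under 0.05, where 4.64% of genes were called higher and 2.95% lower; the median was 0.22, beside 0.037. In cry1cry2 against wild type on DMSO, 3 were called higher and 1 lower, where 19.7% and 24.8% of all genes were, and the median was 0.45, beside -0.0046. On 3B7N, 2 were called higher and none lower, where 14.2% and 11.9% of all genes were, and the median was -0.27, beside 0.053. For the interaction, 1 was called lower and none higher, where 10.9% and 18.9% of all genes were, and the median was -0.42, beside 0.073. In untreated mutant against treated wild type, 2 were called higher and 4 lower, where 14.6% and 15.5% of all genes were. Those 4 were PHYA, PHYB, PHYD and PHYE (-0.72, -0.49, -0.62 and -0.61 log2 units), so the share of lower members was above the share over all genes there. PHYB lost that call under most alternatives and without any single array other than wild-type DMSO 1 and 3 and wild-type 3B7N 2, at -0.51 to -0.35, and PHYD lost it without wild-type 3B7N array 2 (-0.54) or mutant DMSO array 1 (-0.66) or 3 (-0.51). With the slide as a block the PHYD (-0.56) and PHYE (-0.55) calls were lost as well, and with the mean of both probes that of PHYE (-0.40).

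The wild-type contrast and the mutant contrast on DMSO share the untreated wild-type arrays, and untreated mutant against treated wild type shares arrays with every other contrast, so their values for these genes are not independent of each other. Scaling each array by its median instead of its 75th percentile moved the median of all genes by 0.135 in the wild-type contrast, by -0.132 in mutant against wild type on 3B7N, by -0.139 in the interaction and by -0.128 in untreated mutant against treated wild type. The higher genes among all those called went from 41.2% to 55.4%, from 54.4% to 35.3%, from 63.4% to 51.1% and from 48.5% to 32.5% in the same order.

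**Figure D4:**
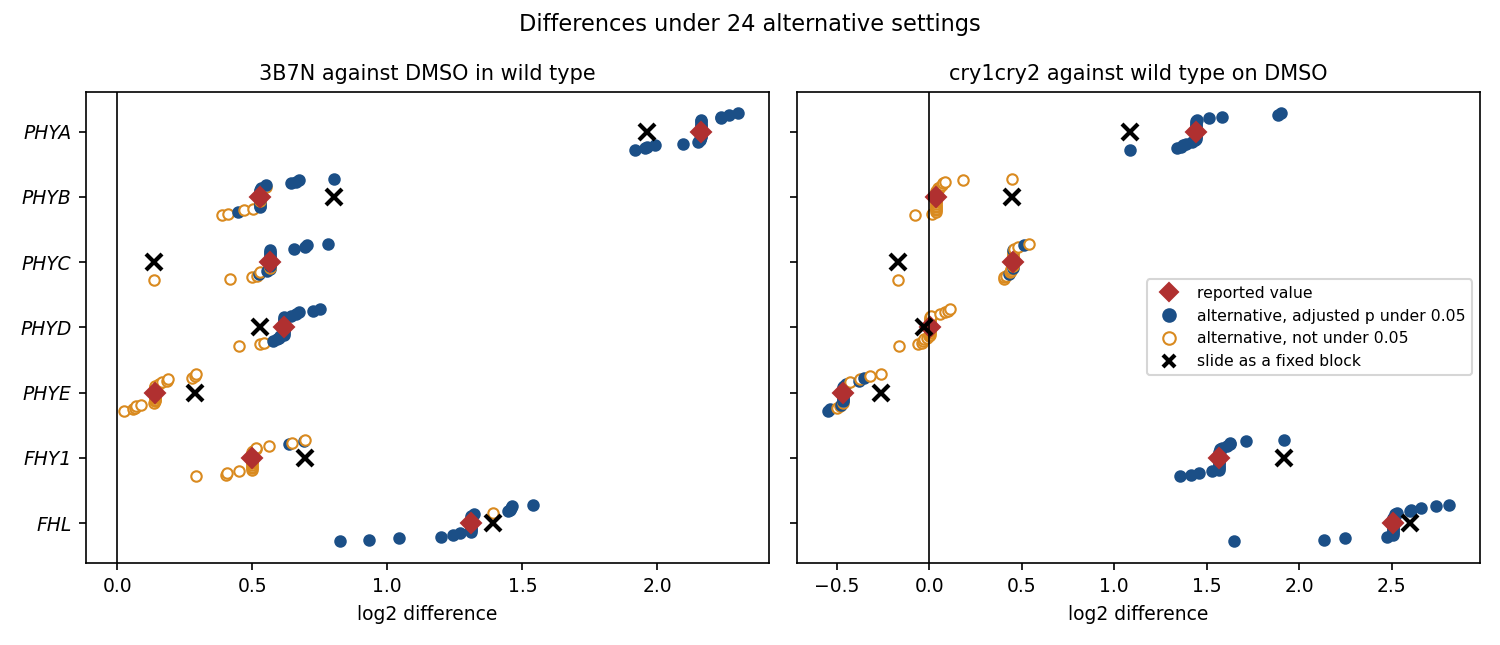
Log2 differences of the 7 genes with 3B7N in wild type (left) and in cry1cry2 on DMSO (right), as reported and under 24 alternative settings. PHYA kept 1.92 to 2.30 (left) and 1.09 to 1.90 (right), all called, whereas PHYC fell to 0.14 (left) and -0.17 (right) with the slide as a block.

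Genes that act with the phytochromes were read in 7 lists, which were chosen with results of these arrays known. Beside each count stands the number of genes the list would hold at the shares of all genes called, which were 16.5% higher and 23.5% lower with 3B7N in wild type, and 19.7% and 24.8% in cry1cry2 on DMSO. The median over all genes was -0.055 in the first contrast and -0.0046 in the second. The PIF factors, basic helix-loop-helix proteins of which active phytochromes bind several and mark them for breakdown, moved in both comparisons. With 3B7N in wild type 4 of 7 rose and 2 fell, with a median of 1.17, where the shares of all genes give 1.2 and 1.6. PIF4 rose by 2.65 (adjusted p = 1.04e-05 by limma), PIF5 by 1.63 and PIF3 by 1.17, and PIF8 fell by 1.46. In cry1cry2 on DMSO again 4 were higher and 2 lower, beside 1.4 and 1.7, with a median of 1.59. PIF4 was higher by 2.63, PIF3 by 1.59 and PIF5 by 1.63, and PIF8 was lower by 2.86 log2 units (-2.86, adjusted p = 4.78e-08 by limma). The 4 higher calls were made under every alternative in the wild-type contrast, and 4 or 5 were made in the mutant contrast, where 1 of the 2 lower calls was lost without wild-type DMSO array 3. The 2 lower calls in the wild-type contrast had a lowest count of 1 over all 24 alternatives. With 3B7N in cry1cry2 PIF8 was the one PIF that passed the test (-0.51), a call lost when any one of 6 arrays was left out. The shares of all genes give 0.3 higher and 0.2 lower there.

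Shade markers are genes that rise when phytochromes are inactivated by far-red light. With 3B7N in wild type 5 of 11 rose and 1 fell (median 0.71), where the shares of all genes give 1.8 and 2.6. HAT2, a homeodomain factor, rose by 1.74, PAR1 by 1.48, the auxin response gene IAA29 by 1.23 and ATHB4 by 1.10. The fall was that of YUC9 (-1.30), which was called in 7 of the 24 alternatives and was well above background on 2 of the 3 treated arrays. In cry1cry2 on DMSO 7 of 11 were higher and none lower (median 1.00), beside 2.2 and 2.7, among them HAT2 (2.06), IAA29 (1.68), PAR1 (1.50) and PIL1 (2.07). With the slide as a block 2 higher calls were left in each contrast. None passed the test with 3B7N in cry1cry2, where the shares of all genes give only 0.5 higher and 0.3 lower.

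The list of partners and light-body proteins of the phytochromes included PCHL, which is known to slow the reversion of active phytochrome B. Its probe was well above background on the 3 untreated wild-type arrays and on none of the other 9, so that only a bound can be given. The bound sets the mean of the untreated wild type against, on each dim array, the higher of the probe's own signal and the lowest signal of any probe well above background there. PCHL was at least 5.14-fold lower with 3B7N in wild type (adjusted p = 7.54e-05 by limma) and at least 14.2-fold lower in cry1cry2 on DMSO (adjusted p = 2.52e-06 by limma). PCH1, its relative, was lower by 0.46 (-0.46) and 0.72 (-0.72). In wild type with 3B7N 2 of 13 rose and 4 fell, where the shares of all genes give 2.1 and 3.1. In cry1cry2 on DMSO 1 was higher and 5 lower, beside 2.6 and 3.2. ARR4, a response regulator known to bind phytochrome B, was at -0.48 and -2.33 in these contrasts. The nucleoside diphosphate kinase NDPK2 was lower in the mutant on DMSO (-0.72). RCB fell with 3B7N in wild type (-0.61), and VOZ1, which binds phytochrome B, rose there (0.53). With 3B7N in cry1cry2 NDPK2 was the one gene of this list that passed the test, and it rose (0.68, adjusted p = 0.0354 by limma). The shares of all genes give 0.6 higher and 0.4 lower there. The count of higher calls in that contrast was 0 to 2 with single arrays left out. Leaving out single arrays took the lower calls in the wild-type contrast to 1 without wild-type 3B7N array 2, and to 2 without array 3 or array 2 of wild type on DMSO. The 2 higher calls there were lost without wild-type DMSO array 2 or 3 or wild-type 3B7N array 2, and 1 was lost without wild-type DMSO array 1, wild-type 3B7N array 3, mutant DMSO array 1 or 3, or mutant 3B7N array 1 or 2.

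Of the factors of phytochrome A signalling, 4 of 16 rose and 5 fell with 3B7N in wild type, where the shares of all genes give 2.6 and 3.8. PKS4, a phytochrome kinase substrate, rose by 2.16 (adjusted p = 0.000507 by limma). AFR, an F-box protein, fell by 0.95, the zinc finger protein TZP by 0.58, and PAT1 of the GRAS family rose by 0.52. In cry1cry2 on DMSO 2 were higher and 5 lower, beside 3.2 and 4.0, with PKS4 at 2.04, AFR at -1.98, TZP at -1.10 and the COP1 partner SPA1 at -0.55. The 4 higher calls in wild type fell to 1 with wild-type DMSO array 2 or 3 or wild-type 3B7N array 2 or 3 left out, and the 5 lower calls fell to 2 without wild-type DMSO array 3 or wild-type 3B7N array 2 and to 3 without wild-type DMSO array 2, wild-type 3B7N array 3 or mutant 3B7N array 1. None of the 16 passed the test with 3B7N in cry1cry2, where the shares of all genes give only 0.7 higher and 0.5 lower.

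Of the FHY3 and FAR1 family, which holds the known activators of FHY1 and FHL, 2 of 14 were higher and none lower in each contrast, where the shares of all genes give 2.3 and 3.3 in the first and 2.8 and 3.5 in the second. FHY3 was 0.45 higher with 3B7N in wild type (adjusted p = 0.0250 by limma) and 0.52 higher in cry1cry2 on DMSO (adjusted p = 0.0106 by limma). FAR1 differed by 0.048 and 0.26, and neither passed the test. FRS8 rose by 0.63 in the first contrast, and FRS1 was 0.77 higher in the second. The counts were 1 without wild-type DMSO array 2 or 3 or wild-type 3B7N array 1 or 2 in the first contrast. In the second the count was 0 without wild-type DMSO array 2 and 1 without mutant DMSO array 1 or 3.

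Of the factors that mark light-activated phytochromes for breakdown, 5 of 6 had a usable signal, and 3 of those 5 rose and 1 fell with 3B7N in wild type, where the shares of all genes give 0.8 and 1.2. LRB1 and LRB2, substrate adaptors for phytochrome B, rose by 0.67 and 0.74, the scaffold CUL3A rose by 0.37, and COP1, a ubiquitin ligase, fell by 0.51. The higher calls fell to 1 without wild-type DMSO array 3 or wild-type 3B7N array 2, and the COP1 call was lost in 12 of the 24 alternatives. Over all 24 alternatives the lowest count of higher calls was 0, reached with no array left out. In cry1cry2 on DMSO CUL3A was 0.34 higher (adjusted p = 0.0407 by limma), a call that was lost when any one of 10 arrays was left out. Of 5 genes of chromophore synthesis 3 had a usable signal. The heme oxygenase gene HO2 fell by 0.76 with 3B7N in wild type (adjusted p = 0.0216 by limma), a call lost without wild-type DMSO array 3 or wild-type 3B7N array 2 or 3. HY2, the phytochromobilin synthase gene, was 0.92 higher in cry1cry2 on DMSO (adjusted p = 0.00111 by limma), the 1 higher call of this list there. The count of higher calls stayed at 1 with single arrays left out and was 0 to 2 over all 24 alternatives. HY1, the main heme oxygenase gene, differed by 0.18 with 3B7N in wild type and by 0.32 in cry1cry2 on DMSO, without passing the test.

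**Figure D5:**
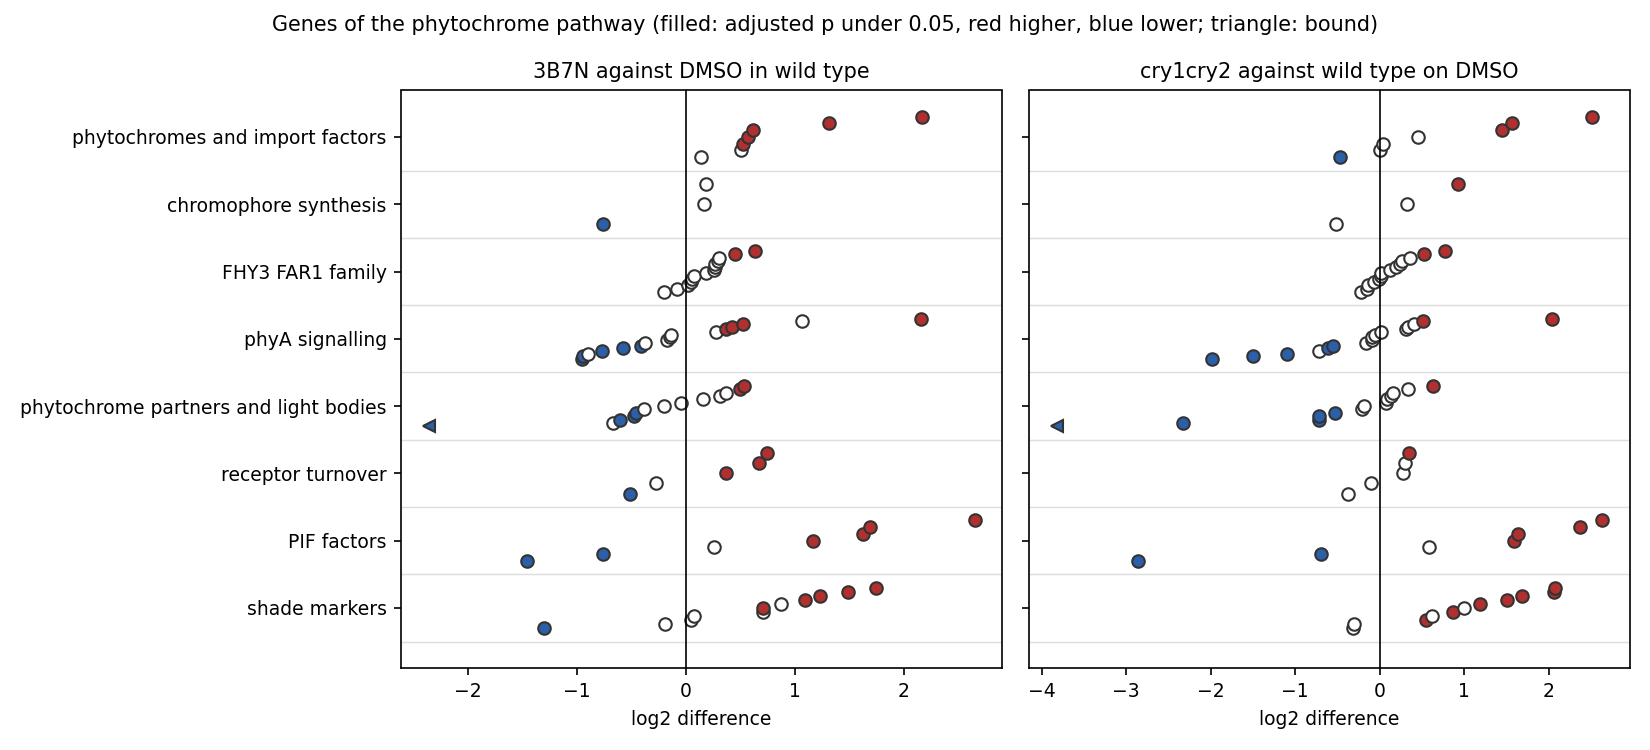
Log2 differences of the genes of each list with 3B7N in wild type (left) and in cry1cry2 against wild type on DMSO (right), one point per gene and filled where the adjusted p was under 0.05. PCHL, not well above background in the lower group of either panel, is a triangle at its bound, at least 2.36 and 3.82 log2 units lower, and 4 of 7 PIF factors are filled on the higher side of both.

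The tissue markers are set beside the shares of all genes too. For 3B7N in wild type these give 1.0 higher and 1.4 lower for each list of 6 markers. They give 0.7 and 0.9 for the 4 seed markers, and 0.3 and 0.5 for each list of 2. With 3B7N in wild type 1 of 6 green tissue markers rose (LHCB2.1, 0.76), 1 of 6 root markers fell (COBL9, -0.84), 1 of 4 seed markers rose (EM1, 3.46), 1 of 2 epidermis markers fell (MYB60, -1.16), and of the vasculature markers SUC2 rose by 0.97 and APL fell by 0.41. The summed seed marker level was -2.15 to 1.68 in untreated and 0.93 to 3.01 in treated wild type, the summed epidermis level 2.49 to 2.86 and -0.96 to 2.71, and the summed vasculature level 3.12 to 3.28 and 3.93 to 4.29. No marker was below background on all arrays of a group. In cry1cry2 on DMSO 1 of 4 seed markers was higher (EM1, 1.98, adjusted p = 0.00749 by limma), where the shares of all genes give 0.8 higher and 1.0 lower. No epidermis or vasculature marker was called in that contrast, where the shares give 0.4 higher and 0.5 lower for each list of 2. In cry1cry2 with 3B7N none of the green, root, seed, epidermis or vasculature markers passed the test. The shares of all genes give at most 0.3 higher and 0.2 lower per list there. The part of the markers in the changes of PHYA and FHL was not tested.

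The genes whose pattern over the 12 arrays was most like that of each gene were sought among 8995 genes with a symbol, by Pearson r. For PHYA these were XTH15 (r = 0.980), ICL (0.979), PRK1 (0.979), MGL (0.978) and ZIF1 (0.977). The PRK1 probe was not well above background on any untreated wild-type array. XTH15, a wall-modifying enzyme gene, had group means of 1.92 and 5.53 in untreated and treated wild type, and 4.87 and 5.01 in untreated and treated cry1cry2, the same order as PHYA. For FHY1 they were ATG8G (0.984), PI (0.981), ECHIA (0.975), BIM3 (0.967) and SYP32 (0.965), and for FHL PSK2 (0.973), ATPMEPCRB (0.955), ENDO2 (0.953), TRFL3 (0.952) and WRKY25 (0.952). ATG8G, an autophagy gene, had group means of -0.77, -0.49, 0.13 and 0.088 in the same order of groups, and PSK2, a phytosulfokine precursor gene, had -3.41, -1.72, -0.61 and -0.60. For PHYB they were ESP1 (0.926), KEG (0.923) and LARP1b (0.912), for PHYC RDR1 (0.936), VOZ1 (0.928) and CK1 (0.919), for PHYD NFXL1 (0.974), ARABIDILLO-2 (0.966) and GCT (0.953), and for PHYE GLR3.4 (0.966), STN8 (0.939) and PTM (0.935). VOZ1 also stands in the list of partners above.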

How the data were processed

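Spots were extracted by the authors with Agilent Feature Extraction 10.7.3.1, per the file headers. The deposited intensity is its processed signal, with background subtracted and no scaling between arrays. A table of the authors' own holds, per chemical contrast, an unsigned fold as a ratio and a corrected p-value, by steps not given in the sources used here. On the log2 scale, the processed signal was set relative to the array's 75th percentile, spots of a probe were averaged, 49 probes with an outlier spot were dropped, and a probe was kept if well above background on all 3 arrays of some group. Probes were joined to loci by transcript accession in a RefSeq table of TAIR10.1. The headers name TAIR10, so no coordinates are given. A gene was read by its brightest kept probe. Limma 3.58.1 in R 4.3.3 fitted 4 group means to 12 arrays, two-sided, with Benjamini-Hochberg adjustment over 20487 genes, and differences with an adjusted p under 0.05 were called. The fit was tested on simulated data. Arrays give no counting depth, and their number limits the precision. The genes, lists, tests and alternatives were chosen with earlier results of these data known. Named were the 7 genes, for each list up to 4 genes of lowest adjusted p in the wild-type contrast and in the mutant contrast on DMSO, and the 5 or 3 genes most like each in pattern. FAR1 and YUC9 fall outside that rule and were named after their values were seen. A planned promoter motif search was not run, because promoter sequences are not used here.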

Additional observations from a re-analysis of the deposited data

Results flagged for a closer look

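PHYA changed with 3B7N by 0.26 log2 units in cry1cry2 and by 2.16 in wild type, and the test of that difference, the interaction, gave -1.90 (adjusted p = 0.000397 by limma). No other of the 7 genes had an interaction that passed the test as reported. The levels behind it were 3.19 and 5.36 (means of 3 arrays) in untreated and treated wild type, and 4.64 and 4.90 in untreated and treated mutant. No group was large enough for a test of single outlying arrays.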

How the results depend on the processing

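Over 24 alternatives (12 that leave out 1 array and 12 others), 896 of 1001 values of single genes and contrasts kept their direction and side of the threshold, 62 lost a call, 18 gained one and 25 changed sign. The values that changed sign without an array left out were PHYA in the mutant on 3B7N (0.20 with quantile scaling, 0.14 with normexp), PHYC in the mutant on 3B7N (-0.10 with median scaling, -0.10 with the slide as a block, -0.019 with array weights), PHYC in the mutant on DMSO (-0.17) and in the interaction (0.066) with the slide as a block, PHYD in the mutant on DMSO (-0.0048 with quantile scaling, -0.031 and -0.013 with the slide as a fixed and a random block, -0.035 with array weights), and PHYE with 3B7N in the mutant (-0.0035) and in the interaction (-0.031) with the mean of both probes. No sign change was of a called value. With single arrays left out, the ranges that crossed 0 were, with 3B7N in the mutant, -0.35 to 0.21 for FHL and -0.039 to 0.14 for FHY1, in the mutant on DMSO, -0.080 to 0.18 for PHYB and -0.16 to 0.11 for PHYD, in the mutant on 3B7N, -0.18 to 0.19 for PHYC, and in untreated mutant against treated wild type, -0.33 to 0.034 for PHYC. The count of 5 called higher with 3B7N in wild type was 2 with the slide as a block, 3 with only the arrays compared, and 2 to 5 with 1 array left out. The count of 2 higher in the mutant on 3B7N was 1 with quantile scaling, 1 with the replicate block, 0 with the slide as a fixed block, 1 as a random block, and 1 to 2 with 1 array left out, and median scaling added 1 lower. The 1 lower in the mutant on DMSO became 0 with the mean of both probes, the slide as a block or only the arrays compared, and was 0 to 1 with 1 array left out. In untreated mutant against treated wild type the 2 higher became 1 with the slide as a block (1 to 2 with 1 array left out), and the 4 lower became 2 with quantile scaling, normexp or the mean of both probes and 1 with the slide as a block (1 to 4 with 1 array left out). The 1 lower in the interaction became 2 with median scaling, quantile scaling, normexp, array weights or probes above background on all arrays, and 1 to 2 with 1 array left out. The causes were not tested. Over all genes, the slide as a block took the higher and lower calls from 951 and 605 to 220 and 101 with 3B7N in the mutant, from 3371 and 4815 to 2141 and 3254 in wild type, from 4043 and 5080 to 1695 and 2696 in the mutant on DMSO, from 2901 and 2434 to 14 and 32 in the mutant on 3B7N, from 3868 and 2234 to 2056 and 982 in the interaction, and from 2993 and 3178 to 1530 and 1793 in untreated mutant against treated wild type. Replicate numbers did not pair the samples: of 18 same-numbered pairs 6 had a correlation of deviations over 0.1 (range -0.33 to 0.36), and a sample correlated best with its own number in 10 of 36 cases. The interaction has no fit on only the arrays compared, since it uses all of them. FHL was dim in wild type, though well above background on all 12 arrays. Its differences were smallest with normexp, at 0.82 with 3B7N in wild type and 1.65 in the mutant on DMSO. The part of dim signal in these sizes was not tested.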
